A study of Mus musculus with 8 samples.

Results

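Described here are 10 genes for proteins that control splicing or stability of messenger RNA in muscle: Srpk3, Rbm24, Rbm38, Celf1, Celf2, Mbnl1, Mbnl2, Mbnl3, Qk and Ptbp1. They were taken by symbol from 3 expression tables, which kept 12344 gene loci (female knockout), 11440 (male knockout) and 11084 (KI) with at least 1 FPKM in 1 column. All 10 were found in each table under a symbol of their own. Each time 9 of the 10 passed that filter, and Mbnl3 did not.

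During muscle differentiation the exons of many contractile, membrane and calcium-handling transcripts are exchanged. Muscleblind (MBNL), CELF, Quaking (Qk) and RBM24 proteins bind sequence elements near such exons and favour or oppose their inclusion, and PTBP1 represses muscle and neuronal exons in undifferentiated cells. SRPK3 is a muscle-enriched kinase of the serine- and arginine-rich (SR) splicing factors, and RBM24 and RBM38 also bind the messages of Myog and Cdkn1a and stabilise them.

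RNA was sequenced from mouse satellite cells (muscle stem cells) of a B6/129 background, sorted for a Cre-dependent TdTomato reporter at Rosa26 and differentiated for 24 h. Per the labels' protocols all cells were grown with 20% serum, FGF and 2.5 µM 4-hydroxytamoxifen. In the female pair the labels give Pax7-CreER and the Rosa26 reporter for wild type (WT), and these alleles plus floxed UTX for the knockout (KO). For the male WT and KO cells and for the female KI and Ctrl-KI cells only the titles give the genotype, and the allele of KI is not stated. UTX, encoded by Kdm6a, is an X-linked demethylase of histone H3 lysine 27. Because Cre is driven by Pax7, deletion depends on cells that expressed Pax7 while tamoxifen was present. No ages or numbers of animals are given.

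Each KO and WT group was 1 library, and the 2 libraries of KI and of Ctrl-KI were deposited as 1 pooled value per group. No comparison within a table therefore has a replicate error or a p-value. The only error is the deposited confidence interval, whose median width over genes was 119% of the FPKM in female WT cells, 171% for the male WT library and 40.0% for Ctrl-KI. FPKM counts fragments per length of transcript, scaled for the size of a library in a way not stated here, and read depth is unknown. Ratios below are log2((FPKM + 1)/(FPKM + 1)), mutant over control, within 1 table, and a call means at least 2-fold on that scale. Paired values give the control first and the mutant second. Levels were not compared across tables, which were estimated separately. Kdm6a was 20.8 and 16.9 FPKM in females, 7.87 and 2.08 in males and 12.8 and 13.2 in the KI pair, read over the whole gene and not over the floxed part.

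Srpk3 and the related RNA-binding genes Rbm24 and Rbm38 were lower in the KO library of both sexes, and Ptbp1 was higher. Mbnl1 and Mbnl2 lay within 1.5-fold of WT. At least 2-fold lower were 1 of 9 regulators in females (Srpk3) and 3 of 9 in males (Srpk3, Rbm38 and Rbm24), where 4.4% and 6.47% of all genes were that much lower. At least 2-fold higher were 0 of 9 in females and 1 of 9 in males (Ptbp1), against 4.49% and 9.9% of all genes. For KI, 0 of 9 were at least 2-fold lower or higher, beside 0.893% and 3.86% of all genes. A 1.5-fold rule counted 3, 5 and 2 regulators as lower in the female, male and KI pairs (15.6%, 13.8% and 3.29% of all genes) and 0, 1 and 1 as higher (12.3%, 18.5% and 7.37%). The median log2 ratio of the 9 was -0.21 in females, -0.79 in males and -0.20 in the KI table, beside -0.08, -0.02 and -0.04 for all genes. In bulk RNA fewer cells of a type and less RNA per cell cannot be told apart, and markers of other cell types, given at the end, differed between the same columns.

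**Figure D1:**
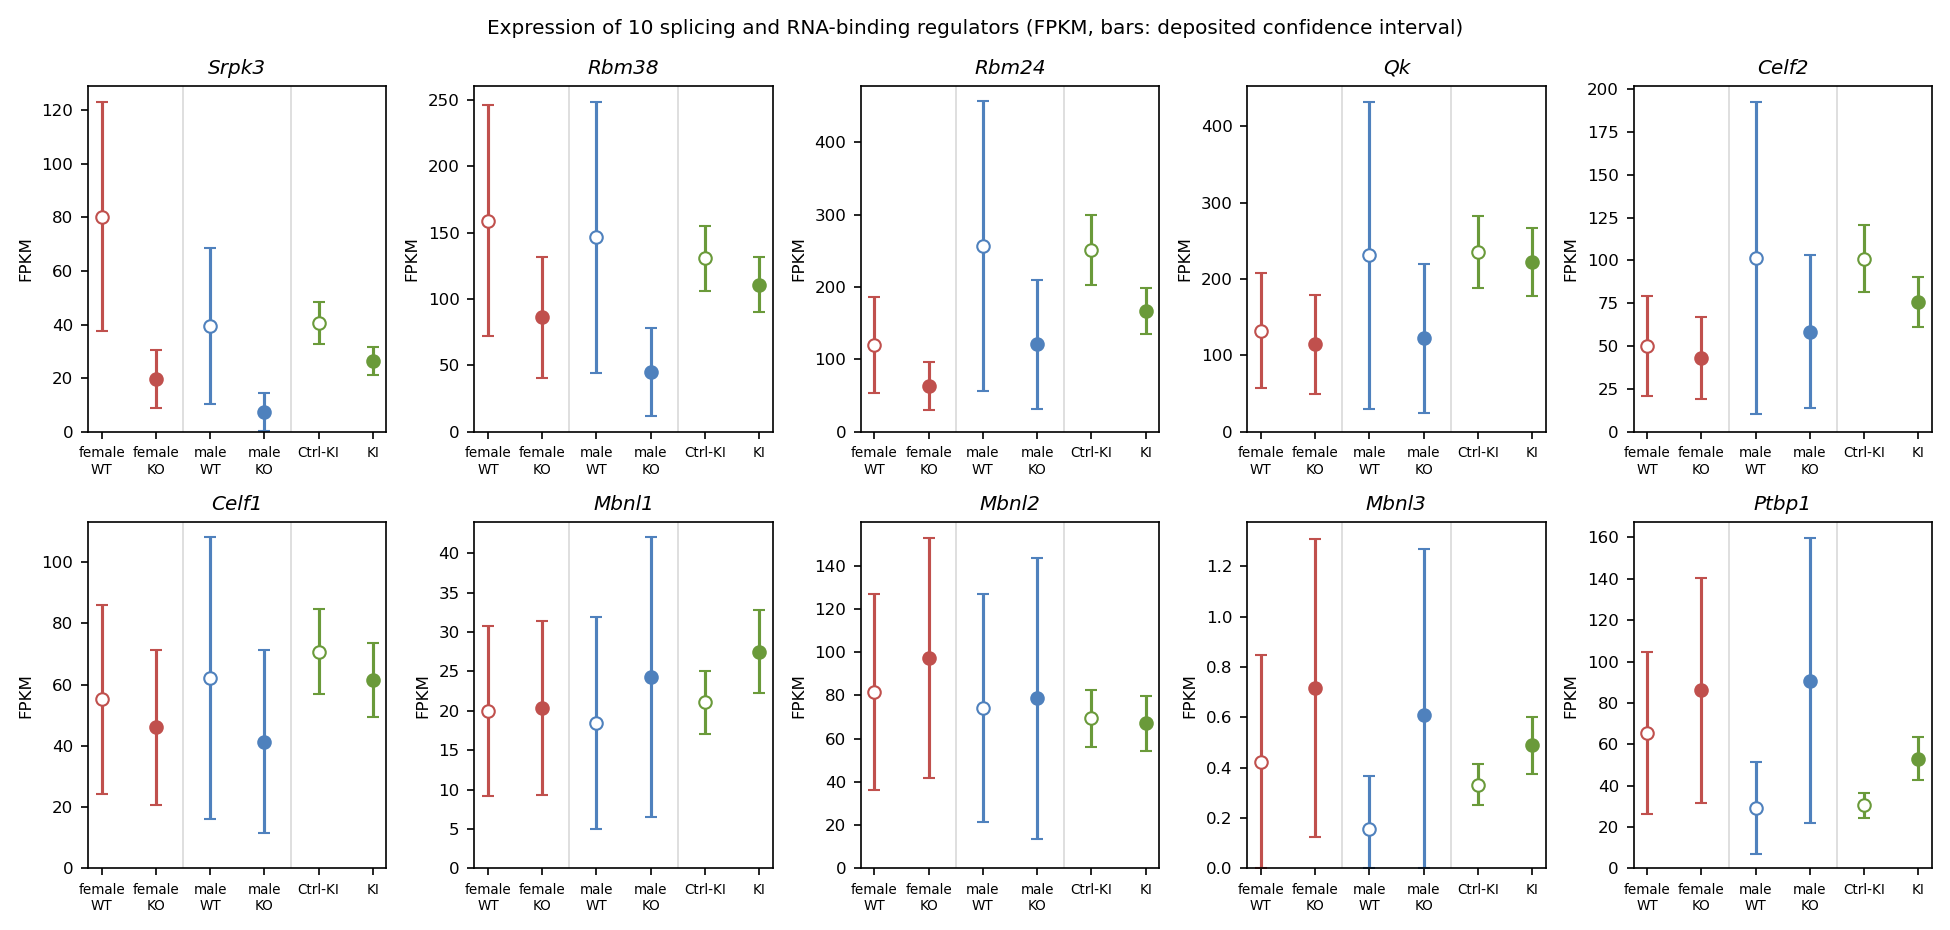
FPKM of the 10 genes (y axis, linear from 0, scaled for each gene) in the 6 columns (x axis). Open points are controls, filled points mutants, and bars the deposited confidence intervals; colours mark the 3 tables, whose levels are not comparable. Srpk3 is lower in the mutant of each pair, and its intervals are apart in the female and KI pairs.

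Srpk3 (mm9 chromosome X, 71019761 to 71024263 in both KO tables) stood lowest of the regulators in every comparison, level with Rbm24 for KI (-0.60 and -0.59). Female WT cells had 80.2 FPKM (interval 37.5 to 122.9) and KO cells 19.8 (8.86 to 30.6), so the intervals did not overlap. In males it was 39.5 FPKM in WT (10.3 to 68.6) and 7.44 in KO cells (0.220 to 14.7), with overlapping intervals. In the KI table it was 40.6 FPKM in Ctrl-KI (32.8 to 48.3) and 26.4 in KI cells (21.4 to 31.5), again apart. The log2 ratios were -1.97 for females, -2.26 for males and -0.60 for KI. Only 0.170% of all genes had a lower ratio than Srpk3 in the female table, 1.04% in the male and 3.09% in the KI table. Intervals were apart for 1 of the 9 regulators in females and 0 in males, beside 0.899% and 0.865% of all genes. For KI they were apart for 2 that were lower (Srpk3 and Rbm24) and 1 that was higher (Ptbp1), beside 3.73% and 8.27% of all genes.

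The share of Srpk3 within its kinase family does not depend on how libraries were scaled. SRPK1 and SRPK2, the widely expressed kinases, phosphorylate the same class of SR proteins. Of the summed FPKM of Srpk1, Srpk2 and Srpk3, Srpk3 held 58.9% and 22.4% in females, 44.8% and 13.6% in males, and 45.6% and 39.6% in the KI pair. Srpk1 was 31.5 and 37.8 FPKM in females and 20.3 and 28.8 in males, and Srpk2 was 24.6 and 30.6 in females and 28.3 and 18.6 in males. By FPKM alone, Srpk1 was the most abundant kinase of the family in both KO columns and Srpk3 in every control. The interval of Srpk3 overlapped those of Srpk1 and Srpk2 in every column except Ctrl-KI, so this order is mostly within the deposited error. In the KI table Srpk1 was 22.1 and 18.7 FPKM.

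**Figure D2:**
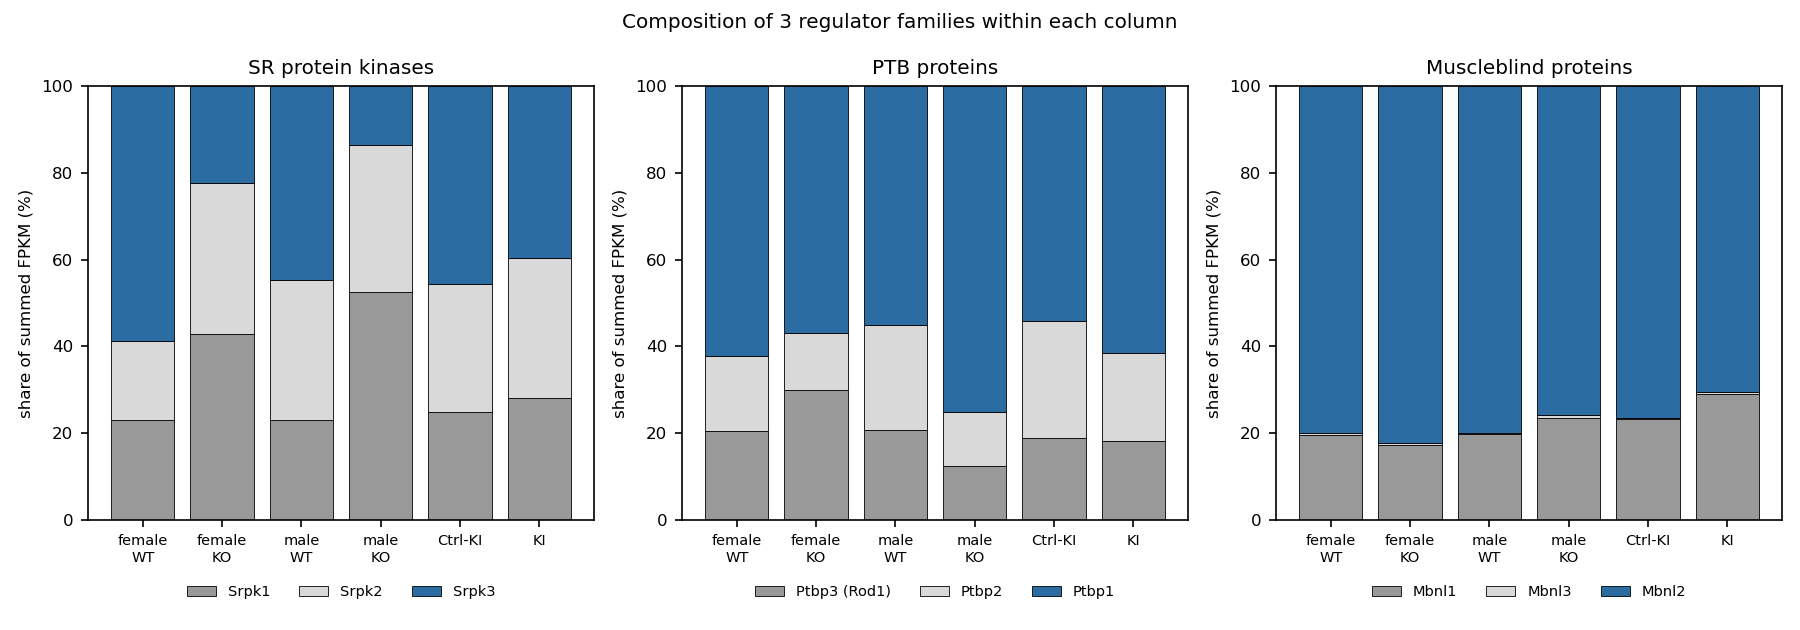
Share of each gene (y axis, percent of the family's summed FPKM) in 3 families, in each of the 6 columns (x axis). The Srpk3 segment is 58.9% in WT and 22.4% in KO females, the Ptbp1 segment 55.1% in WT and 75.1% in KO males, and Mbnl2 is the largest muscleblind segment throughout.

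The promoters of the 4 genes that reached 2-fold in a KO table are printed because the Srpk3 window differs from the others in its muscle-type motifs. Each sequence is the 250 bases before the RefSeq start on GRCm38.p6, a different build from the mm9 of the tables. The windows are chrX:73774155-73774404 for Srpk3, chr13:46418050-46418299 for Rbm24, chr2:173021652-173021901 for Rbm38 and chr10:79854182-79854431 for Ptbp1, all on the plus strand. Capitals mark E-boxes (CANNTG, the motif bound by MyoD and myogenin among other factors, a palindrome and so the same on both strands) and the MEF2 motif.
Srpk3: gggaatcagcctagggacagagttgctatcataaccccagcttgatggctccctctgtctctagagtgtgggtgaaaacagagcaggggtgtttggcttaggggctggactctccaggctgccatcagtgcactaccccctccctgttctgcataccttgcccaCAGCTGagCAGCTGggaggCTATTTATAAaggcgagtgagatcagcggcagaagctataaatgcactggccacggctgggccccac
Rbm24: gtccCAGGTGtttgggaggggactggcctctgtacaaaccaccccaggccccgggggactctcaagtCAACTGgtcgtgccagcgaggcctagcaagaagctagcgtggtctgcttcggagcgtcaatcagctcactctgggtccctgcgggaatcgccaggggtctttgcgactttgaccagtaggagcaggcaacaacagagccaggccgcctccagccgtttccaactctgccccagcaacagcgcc
Rbm38: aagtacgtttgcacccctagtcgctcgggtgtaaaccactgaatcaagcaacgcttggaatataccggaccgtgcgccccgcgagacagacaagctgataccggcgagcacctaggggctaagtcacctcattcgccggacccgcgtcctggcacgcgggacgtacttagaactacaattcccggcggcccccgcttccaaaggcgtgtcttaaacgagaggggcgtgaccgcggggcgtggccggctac
Ptbp1: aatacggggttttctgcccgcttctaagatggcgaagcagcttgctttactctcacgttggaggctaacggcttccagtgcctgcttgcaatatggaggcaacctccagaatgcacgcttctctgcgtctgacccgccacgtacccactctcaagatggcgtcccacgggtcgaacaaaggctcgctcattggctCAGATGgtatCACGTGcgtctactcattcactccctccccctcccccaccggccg
The Srpk3 window holds 1 MEF2 match, CTATTTATAA, 67 bases before the start, and a pair of E-boxes with the letters CAGCTG that begin 86 and 78 bases before it. The MEF2 match overlaps letters of the TATA box (TATAAA, searched on both strands), of which the window has 3 matches. Over all 32851 RefSeq windows of this length, 2.92% held the MEF2 motif, 13% held CAGCTG and 12.4% the TATA box. Any E-box was in 66.2% of them. Rbm24 has 2 E-boxes of other letters, Ptbp1 has 2, and Rbm38 has 0. All 10 genes matched RefSeq, with 15 windows in all, and Srpk3 has the 1 window of the 15 with a MEF2 match. These matches describe letters, and binding was not measured.

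Rbm24 (mm9 chromosome 13, 46513669 to 46526468 in the female table) encodes an RNA-binding protein that promotes inclusion of muscle exons. Female WT cells had 120.0 FPKM (53.6 to 186) and KO cells 63.1 (29.8 to 96.5). Male WT cells had 257 FPKM (56.4 to 457) and male KO cells 121 (30.9 to 211). KO cells were 1.90-fold lower in females and 2.13-fold lower in males, and intervals overlapped in both sexes. In Ctrl-KI cells it was 252 FPKM (203 to 300.3) and in KI cells 166 (135 to 198), with intervals apart. The log2 ratios were -0.92, -1.08 and -0.59. The male value became -0.92 with TPM over loci with a symbol, short of 2-fold.

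Its paralogue Rbm38 (mm9 chromosome 2, 172847403 to 172860232), a p53-induced RNA-binding protein, had its lowest ratio in the male pair. Female WT cells had 159 FPKM (71.8 to 246) and KO cells 86.4 (40.7 to 132), log2 ratio -0.87. In males it was 146 FPKM in WT (44.2 to 249) and 45.4 in KO cells (12.3 to 78.5), log2 ratio -1.67. The male intervals met over a range of 44.2 to 78.5 FPKM. KI values were 131 and 111 FPKM, log2 ratio -0.23, with overlapping intervals. The Rbm24 to Rbm38 ratio of FPKM was 0.754 and 0.730 in females, where both genes were lower by about the same factor, 1.75 and 2.66 in males and 1.93 and 1.50 in the KI pair.

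Of the messages that these proteins are known to stabilise, Myog was 1305 and 817 FPKM in females (log2 ratio -0.68) and 3424 and 961 in males (-1.83). Cdkn1a, the cell cycle inhibitor p21, was 801 and 580.1 FPKM in females (-0.46) and 1707 and 806 in males (-1.08). In the KI table Myog had a log2 ratio of -0.18 and Cdkn1a of -0.24. Message stability was not measured.

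Ptbp1 (mm9 chromosome 10, 79314122 to 79337379 in the female and KI tables) was the highest of the 9 regulators by ratio in each comparison. Female WT cells had 65.4 FPKM (26.1 to 105) and KO cells 86.1 (31.8 to 140.5), with intervals that overlapped widely. In males it was 29.1 FPKM in WT (6.86 to 51.3) and 90.8 in KO cells (21.9 to 160), 3.12 times the WT level, and the intervals still overlapped. In Ctrl-KI cells it was 30.5 FPKM (24.3 to 36.6) and in KI cells 52.9 (42.5 to 63.3), with intervals apart. The log2 ratios were 0.39, 1.61 and 0.78. With TPM over all loci, which shifted the median of all genes to -0.70 in males and -0.77 for KI, Ptbp1 was 0.81 in males, short of 2-fold, and -0.04 for KI, both above those medians. The locus overlaps BC005764, which was 12.7 and 14.7 FPKM in the female columns and under 4 FPKM in the others, and strand is not stated.

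The other PTB genes had ratios of their own. Ptbp2, the neuronal paralogue that PTBP1 is known to repress, was 18.2 and 20.1 FPKM in females, 12.8 and 15.0 in males and 15.2 and 17.4 for KI. Ptbp3, listed as Rod1, was 21.6 and 45.1 FPKM in females (log2 ratio 1.03), 10.9 and 15.1 in males (0.44) and 10.7 and 15.7 for KI (0.52, intervals apart). Ptbp1 thus held 62.1% and 56.9% of the family's summed FPKM in females, 55.1% and 75.1% in males, and 54.1% and 61.5% for KI. Its share was larger in the mutant in 2 of the 3 tables and smaller in the female KO column.

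Qk encodes Quaking, a STAR-family protein that regulates muscle exons and is also made in glia and endothelium. It was among the most abundant of the 10, at 132 FPKM (56.7 to 208) and 114 FPKM (49.99 to 179) in the female pair. Male WT cells had 231 FPKM (29.4 to 432) and male KO cells 122 (24.1 to 220.2), and the male intervals overlapped. KI values were 235 and 222 FPKM. The log2 ratios were -0.21, -0.91 and -0.08, and the KI value became 0.02 with TPM over loci with a symbol. With TPM over all loci the male value was -1.69, past 2-fold, and the KI value -0.91. That scaling moved the median of all genes to -0.70 in males and -0.77 for KI. The male table lists a further Qk locus with the same bounds at 6.45 and 2.74 FPKM, with intervals that reach 0.

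Celf1 and Celf2, whose proteins oppose MBNL on many exons, lay below the control in all 3 tables by less than 2-fold. Celf1 was 55.2 and 46.0 FPKM in females, 62.2 and 41.4 in males, and 70.8 and 61.6 for KI. Celf2 was 50.1 and 43.2 FPKM in females, 102 and 58.5 in males, and 101 and 75.9 for KI. Log2 ratios were -0.26, -0.58 and -0.20 for Celf1 and -0.21, -0.79 and -0.41 for Celf2, and all 6 pairs of intervals overlapped. With TPM over all loci they were -0.08 and -0.03 in females, but past 2-fold in males (-1.32 and -1.54) and for KI (-1.01 and -1.23), where that scaling moved the median of all genes to -0.70 and -0.77.

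Among the muscleblind genes, which promote adult-type exons, Mbnl2 was the most abundant and Mbnl3, a form linked to undifferentiated myoblasts, was near the detection floor. Mbnl1 was 19.9 and 20.4 FPKM in females, 18.4 and 24.3 in males and 21.1 and 27.5 for KI (log2 ratios 0.03, 0.38 and 0.37). Mbnl2 was 81.6 and 97.3 FPKM in females, 74.1 and 78.6 in males and 69.4 and 67.0 for KI (log2 ratios 0.25, 0.08 and -0.05). All 6 interval pairs overlapped, and the sign of both male ratios and of the KI ratio of Mbnl1 turned with TPM over all loci, as did the KI ratio of Mbnl2 with TPM over loci with a symbol. Mbnl3 was 0.422 and 0.717 FPKM in females, 0.157 and 0.608 in males and 0.333 and 0.488 for KI, so no fold is given. Mbnl2 held 70.5% to 82.2% of the family's FPKM over the 6 columns.

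**Figure D3:**
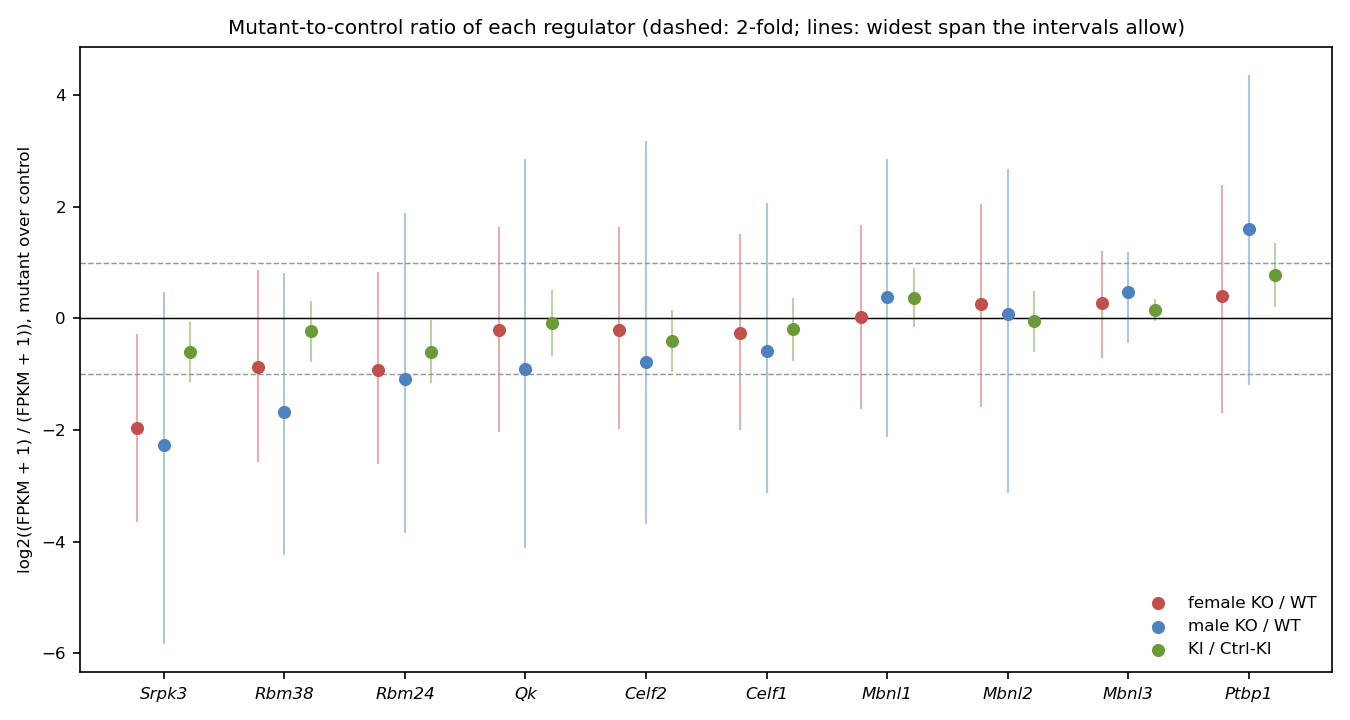
Log2 ratio, mutant over control (y axis), of each of the 10 genes (x axis) in the female KO, male KO and KI tables. Vertical lines give the widest span that the deposited intervals allow and dashed lines 2-fold. Srpk3, Rbm38 and Rbm24 lie below 0 in each table, and Ptbp1 above 0 (but at -0.04 for KI with TPM over all loci). The line of Srpk3 stays below 0 in the female and KI tables. For KI the line of Rbm24 also stays below 0 and that of Ptbp1 above 0.

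By FPKM, a per-length value, the order within a column differed between control and KO cells. Rbm38, Qk and Rbm24 were the 3 most abundant in both WT columns and in Ctrl-KI cells. In female KO cells the order was led by Qk, Mbnl2 and Rbm38, and in male KO cells by Qk, Rbm24 and Ptbp1. Srpk3 was in place 5 in WT and 9 in KO females, and in place 7 and 9 in males. Neighbours in the order were mostly not apart: intervals separated 1 of 9 neighbouring pairs in each female column and in male WT cells (the step down to Mbnl3), 0 of 9 in male KO cells and 3 of 9 in each KI-table column.

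With the female and the male pair as repeats of one contrast, 0 of 9 regulators passed. limma on the female and male ratios, with Benjamini-Hochberg adjustment over 10525 genes, called 1 gene (0.0095%), the Rosa26 transcript Gt(ROSA)26Sor. At an unadjusted limma p under 0.05, 3 were lower and 1 higher, beside 10.3% and 9.58% of all genes. Srpk3 had a mean log2 ratio of -2.11 ± 0.23 (moderated SE of limma, 2 sexes, adjusted p = 0.0893) and was lower in 2 of 2 sexes. Rbm38 had -1.27 ± 0.26 (limma adjusted p = 0.105), Rbm24 -0.999 ± 0.204 (limma adjusted p = 0.104) and Ptbp1 1.001 ± 0.331 (limma adjusted p = 0.186). For Srpk3 the adjusted p ranged from 0.0381 to 0.661 over the alternatives, and passed with a filter of 5 FPKM and with TPM over all loci. For the other 5 tested, Celf1, Celf2, Mbnl1, Mbnl2 and Qk, the limma adjusted p lay between 0.294 and 0.715. The residual variance rests on 1 degree of freedom per gene, and limma moderates it toward a trend fitted over all genes. Whether libraries stand for separate animals is not stated. The p-values therefore set the mean of 2 ratios against this moderated variance and cannot be read as a measure of spread between animals.

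Genes of the general splicing machinery were read as 3 lists. Of 20 hnRNP genes, abundant RNA-packaging proteins, 0 reached 2-fold in any table. Over all genes 4.4% (female), 6.47% (male) and 0.893% (KI) were that much lower, and 4.49%, 9.9% and 3.86% higher. The hnRNP medians were 0.02 (female), 0.05 (male) and 0.02 (KI), beside -0.08, -0.02 and -0.04 for all genes. The extremes were Hnrnpd (0.44) and Hnrnpr (-0.26) in females, Hnrnpul1, merged with Axl and Ccdc97 (0.81), and Hnrnph3 (-0.53) in males, and Hnrnpll (0.18) and Hnrnpl (-0.22) in the KI table. Of 13 SR genes, those kept had medians of 0.08, 0.10 and 0.01. In that list Srsf9 alone reached 2-fold, in males, at 22.6 and 47.2 FPKM. The highest and lowest were Tra2b (0.56) and Srsf5 (-0.46) in females, Srsf9 (1.03) and Srsf4 (-0.01) in males, and Srsf9 (0.59, intervals apart) and Srsf6 (-0.19) for KI. The 6 SR protein kinases other than Srpk3 were above WT in 6 of 6 cases in females (median 0.31) and in 1 of 6 in males (median -0.10), with a range of -0.58 (Srpk2, males) to 0.51 (Clk2, females). The limma fit over both sexes called 0 genes of these 3 lists, and 0 of them had an unadjusted p under 0.05, beside 10.3% lower and 9.58% higher of all genes.

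**Figure D4:**
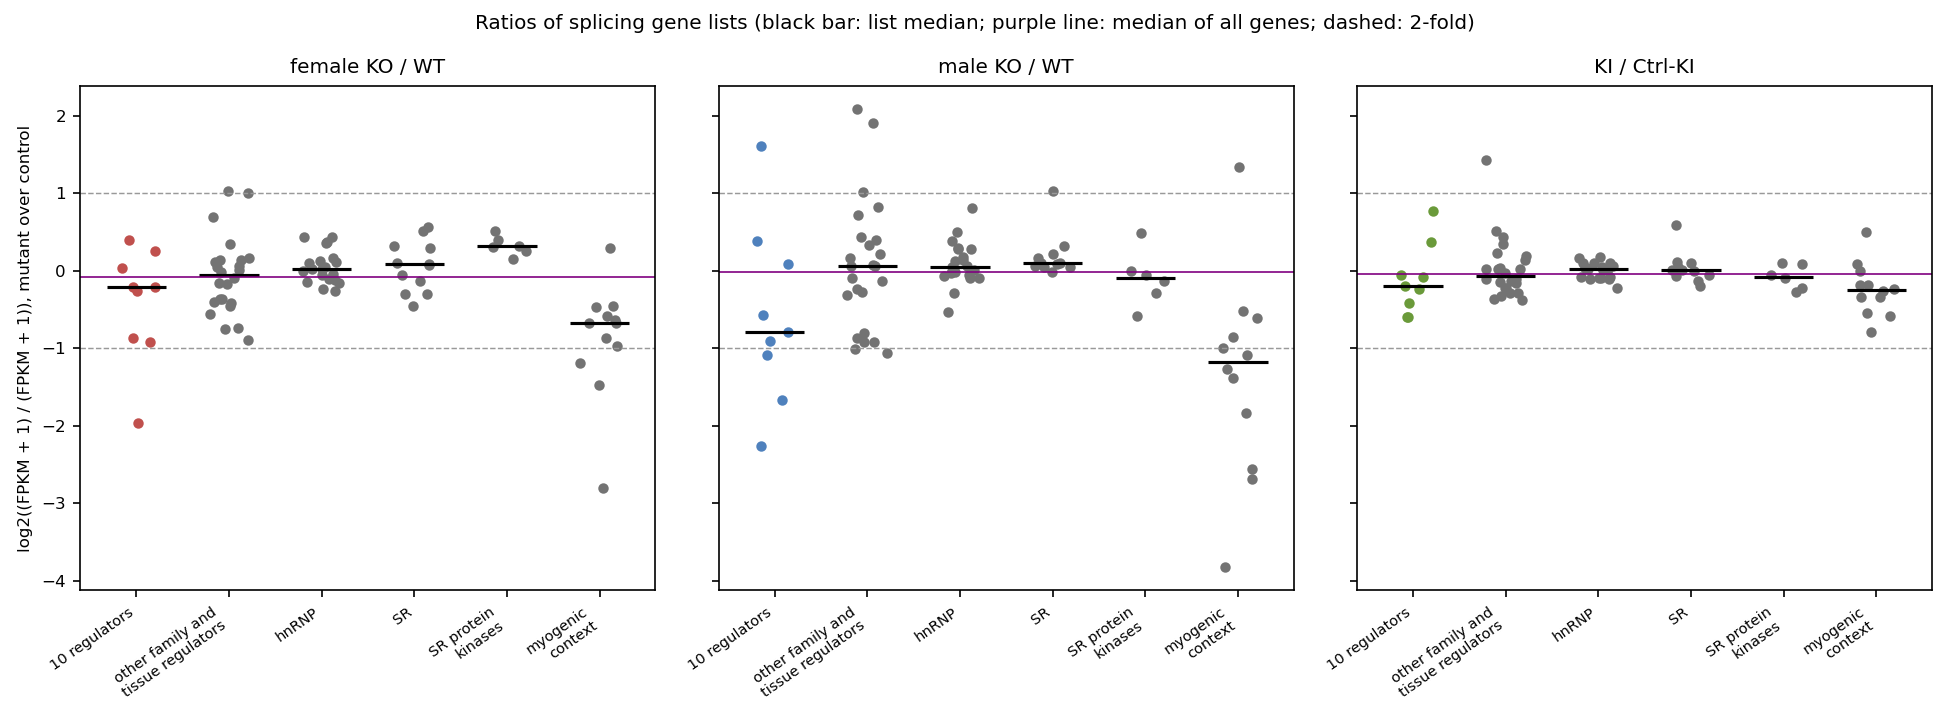
Log2 ratio, mutant over control (y axis), of genes kept in 6 lists (x axis), 1 panel per table. Each point is 1 gene, black bars are list medians and the purple line is the median of all genes; the 9 regulators spread from -2.26 to 1.61 in males, where hnRNP genes lie between -0.53 and 0.81.

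Other tissue regulators of splicing were mixed. Of 24 genes kept in each table, 1 was at least 2-fold higher and 0 lower in females, 3 higher and 2 lower in males, and 1 higher and 0 lower in the KI table. The shares of all genes that much higher and lower were 4.49% and 4.4% in females, 9.9% and 6.47% in males. For KI they were 3.86% and 0.893%. Transcripts of RBFOX1 and RBFOX2, which bind GCAUG elements beside muscle exons, lay below WT in both sexes, as did others of the list. Rbfox3 did not pass the filter. Rbfox1 was 27.0 and 14.1 FPKM in females (log2 ratio -0.89) and 8.15 and 3.54 in males (-1.01), and Rbfox2 141 and 84.0 FPKM in females (-0.74) and 205 and 97.8 in males (-1.06). Intervals overlapped for both genes in each sex. In the KI table Rbfox1 and Rbfox2 each had a log2 ratio of -0.29, also with overlapping intervals. Ptbp3 in females (1.03) and Rbpms (2.09 in males and 1.43 in the KI table) were the highest by ratio, and Nono, merged with Itgb1bp2, the lowest for KI (-0.38). Rbpms, an RNA-binding protein of smooth muscle and other mesenchyme, was 0.468 and 5.24 FPKM in males and 0.362 and 2.66 for KI, and passed the filter in both tables only through the mutant column. In the limma fit 0 of 22 tested passed the adjusted threshold, and 5 lower and 2 higher had an unadjusted p under 0.05, beside 10.3% and 9.58% of all genes.

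Genes closest to each called regulator over the 3 log2 ratios were sought among 7087 others with at least 5 FPKM in 1 column of every table, by Euclidean distance. For Srpk3 they were Hfe2 (distance 0.0660), the muscle and liver iron regulator hemojuvelin, the M-band protein gene Myom3 (0.194) and Pgam2, the muscle phosphoglycerate mutase (0.264). For Rbm24 they were Bicd2 (0.0931), Dok7, an activator of the muscle receptor kinase MuSK (0.0987), and Tecr (0.109). For Rbm38 they were Amigo1, Tmem109 and AI464131 (0.0689 to 0.146), and for Ptbp1 Shisa5, Pqlc3 and Fads1 (0.114 to 0.178). The likeness rests on 3 ratios.

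Myogenic and other cell type markers differed between the same columns. Of 12 myogenic genes 11 were below WT in each sex, and 10 of 12 were below Ctrl-KI in the KI table, with medians of -0.67 in females, -1.17 in males and -0.25 for KI, and their summed FPKM was 6814 and 3264 in females, 14104 and 4506 in males and 12359 and 10219 for KI. Mef2c, whose protein is known to drive Srpk3, was 66.4 and 33.5 FPKM in females, 168 and 25.4 in males and 113 and 99.6 for KI. Of 10 proliferation genes 4 were at least 2-fold higher in female KO and 10 in male KO cells, and 0 of 8 kept genes in KI cells. The shares of all genes that much higher were 4.49%, 9.9% and 3.86%, and the proliferation medians were 0.55, 2.01 and 0.19. Of the 10 proliferation genes, 1 in females and 2 in males passed the filter only through the KO column. Of satellite cell and myoblast markers, Pax7 was 4.33 and 5.54 FPKM in females, 5.82 and 16.3 in males and 3.33 and 3.30 for KI. Myf5 was 12.5 and 7.69 FPKM in females (log2 ratio -0.63), 5.38 and 3.17 in males (-0.61) and 5.91 and 8.76 for KI (0.50). Myod1 was 189.9 and 103.5 FPKM in females (log2 ratio -0.87), 1005 and 701 in males (-0.52) and 906 and 619.9 for KI (-0.55). Cdh15 had log2 ratios of -0.67 in females, -0.99 in males and -0.58 for KI. Intervals of these genes overlapped in each table.

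Endothelial markers summed to 21.8 and 35.6 FPKM in females, 2.81 and 73.7 in males and 3.28 and 10.9 for KI (loci merged with a neighbour left out). In male KO cells Emcn was 40.6 FPKM, Eng 13.3, Cdh5 12.3 and Egfl7, the next, 3.48. Kdr, Flt1, Tek and Tie1 were each under 1 FPKM there. Counted without a filter on low values, 9 of 9 were higher in the mutant in each table. Fibro-adipogenic markers summed to 235 and 567 FPKM, 19.1 and 93.8, and 10.002 and 317, with 9 of 9, 8 of 9 and 9 of 9 higher in the mutant. Of these, Col3a1 was 59.1 FPKM in male KO cells, Thy1 22.1 and Cd34, the next, 5.39, while Pdgfra and Dcn were under 1 FPKM. Immune markers summed to 8.92 and 16.2 FPKM, 1.48 and 9.31, and 1.03 and 35.1, with 7 of 8, 6 of 7 and 6 of 7 higher in the mutant. Neural and glial markers summed to 7.92 and 8.70 FPKM, 0.124 and 0.320, and 0.0935 and 1.08, with 5 of 8, 7 of 7 and 6 of 7 higher in the mutant. Many of these markers were under 1 FPKM in both columns, and no test was made of the counts. Listed at 0 were Tie1 in male WT and Ctrl-KI, Emcn in Ctrl-KI, Lum in both male columns and Ctrl-KI, C1qa in female WT and Ctrl-KI, Adgre1 (listed as Emr1) in WT of both sexes, Ptprc in female WT, Snap25 in both columns and Syt1 in WT of the female table, and Sox10 in Ctrl-KI cells. Rbfox3 was listed at 0 in male WT, Ctrl-KI and KI cells. The part of these cell types in the ratios of Srpk3, Rbm24, Rbm38, Qk and Ptbp1 was not tested.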

How the data were processed

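Bulk RNA-seq was used as deposited. The unit is FPKM, which the authors deposited per gene, with bounds and a status, in 3 tables of the Cufflinks tracking layout, per the file headers. The submitters' processing notes name TopHat2 2.0.12, Bowtie2 2.2.4, HTSeq 0.6.1, Cuffdiff, Cufflinks 2.2.1, bedtools 2.16.2, edgeR and mm9, with no role or order. How libraries were scaled, the level of the bounds and the annotation are not given in the sources used here. Titles gave the groups.

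Loci without a symbol (0 for females, 5680 for males and 5971 for KI) or with a status other than OK (6, 61 and 15 of those with a symbol) were left out, and genes under 1 FPKM in both columns were dropped. Of several loci with 1 symbol the higher was used for members, lists, nearest genes and the limma fit. The numbers, medians and shares of all genes within a table count every kept locus. Locus starts are printed 1 higher than deposited, because 210 of 211 microRNA loci matched their RefSeq length only with starts counted from 0. The ratio used a pseudocount of 1 FPKM, which understates changes of low genes. The female and male ratios were tested against 0 with limma 3.58.1 (R 4.3.3) with a trend on mean log2 FPKM, adjusted over all genes at 0.05. Promoter motifs and tables were handled with python 3.11.15 and pandas 2.3.3.

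Named are the 10 members, the highest and lowest gene of each list (for the myogenic, proliferation and other-cell lists mostly counts and sums are given instead), the 3 nearest genes of each member past 2-fold, Kdm6a, Mef2c, Myog, Myod1 and Cdkn1a. Members and lists were chosen with earlier results of these data known. Ptbp2, Srpk1 in the family shares and the genes with opposite signs in the sexes were singled out after their values were seen. The same holds for Myf5, Cdh15, the markers of other cell types given singly and the markers at 0. Tried besides were a pseudocount of 0.1 or 5 FPKM, a filter of 0 or 5 FPKM, median-centring, TPM, a 1.5-fold call, intervals apart and no trend; summing both Qk loci was added after seeing the data.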

Additional observations from a re-analysis of the deposited data

Results flagged for a closer look

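For 3 splicing genes outside the 10 regulators the KO ratio as deposited had opposite signs in the sexes, with at least 2-fold in males. The difference between the sexes was not tested, since each sex is 1 pair of libraries. Celf4, a CELF protein mainly of the nervous system, had a log2 ratio of 1.02 in males (2.26 and 5.63 FPKM) and -0.56 in females (2.32 and 1.26 FPKM). Khdrbs3, a STAR-family RNA-binding protein related to Quaking, had 1.91 in males (5.13 and 22.1 FPKM) and -0.01 in females (3.61 and 3.58 FPKM). Srsf9, an SR protein, had 1.03 in males (22.6 and 47.2 FPKM) and -0.13 in females (32.6 and 29.7 FPKM). The female median over all genes was -0.08, so the female value of Khdrbs3 lies above it and that of Srsf9 close to it. Deposited intervals overlapped in each of these pairs.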

How the results depend on the processing

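No paired analysis was possible because the groups that share replicate numbers, Ctrl-KI and KI, were deposited as 1 pooled column each, so no replicate could be left out either. The limma fit over the sexes pairs KO with WT within each sex. Of 198 ratios of single regulators under the alternatives, 0 called values changed sign. Those that moved past a limit set from the widest span their deposited intervals allow numbered 9, all in the KI table with TPM over all loci. This limit is wide in the KO tables, where male Ptbp1 at 1.61 and, with TPM over all loci, 0.81 did not count as moved. The filter settings leave a regulator's ratio unchanged, so these counts say little about stability. A 1.5-fold call gave 3 lower regulators in females (1 at 2-fold), 5 in males (3) and, in the KI table, 2 lower and 1 higher (0 and 0). Calling by separate intervals gave 0 lower and 0 higher in males, and 2 lower and 1 higher in KI. TPM over all loci, which moved the median of all genes to -0.70 in males and -0.77 in KI, gave 6 lower and 0 higher regulators in males (3 and 1) and 5 lower in KI (0). TPM over loci with a symbol gave 2 lower in males, without Rbm24.

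Genes called by limma over both sexes numbered 1 as fitted, 0 with a pseudocount of 5 FPKM, no filter, median-centring or no trend, 146 with a filter of 5 FPKM and 143 with TPM over all loci. The last 2 settings each called 1 regulator, Srpk3 (limma adjusted p = 0.0381 and 0.0471). With a filter of 5 FPKM 7741 genes were tested instead of 10525, and why more were called was not tested. TPM over all loci turned the mean ratio of Mbnl1 to -0.0753 and of Mbnl2 to -0.13.

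Over all genes, 554 higher and 543 lower in females became 938 higher (pseudocount 0.1), 196 and 246 (pseudocount 5), 1197 higher (TPM), 1524 and 1931 (1.5-fold) and 82 and 29 (intervals apart). In males, 1132 and 740 became 443 and 475 (pseudocount 5), 253 and 2521 (TPM over all loci), 1799 higher (TPM over loci with a symbol), 2121 and 1578 (1.5-fold) and 69 and 30 (intervals apart). In KI, 428 and 99 became 168 lower (pseudocount 0.1), 177 and 47 (pseudocount 5), 262 higher (filter of 5 FPKM), 196 and 1683 (TPM over all loci), 679 higher (TPM over loci with a symbol), 817 and 365 (1.5-fold) and 917 and 413 (intervals apart). The share of higher calls was 50.5% in females (63.2% centred, 73.7% as TPM), 60.5% in males (48.3% with a pseudocount of 5, 9.12% and 71.6% as TPM over all loci and over loci with a symbol) and 81.2% in KI (10.4% as TPM over all loci). The cause of these changes was not tested.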

Other observations

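The FPKM ratio of Srpk3 to Mef2c was 1.21 in WT and 0.589 in KO females, 0.234 and 0.293 in males, and 0.358 and 0.265 for Ctrl-KI and KI. It was lower in the mutant in 2 tables and higher in the male table. The FPKM ratio of Ptbp1 to Rbm24, a repressor and an activator of muscle exons, was 0.545 and 1.36 in females, 0.113 and 0.752 in males, and 0.121 and 0.318 for KI. It is free of any scaling between libraries and was higher in the mutant in all 3 tables. That direction restates the ratios given above, since Ptbp1 lay above and Rbm24 below the control in each table as deposited. The number of annotated start groups in a locus differed between tables, for Celf2 4 in the female, 5 in the male and 6 in the KI table, and for Mbnl1 2, 3 and 4. Gene-level FPKM does not show which exons were used.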
